A study of Mus musculus with 21 samples.

Results

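Methionine restriction was followed from day 1 to day 5 in wild-type C2C12 cells, a mouse myoblast line that can form muscle fibres in culture. Trimethylation of histone H3 at lysine 36 (H3K36me3) was measured by chromatin immunoprecipitation and sequencing, and each library is represented by its list of broad peaks. The comparison used the 2 libraries labelled WT, D5 and MR against the 2 labelled WT, D1 and MR, 4 of the 20 libraries with a peak list. The change over the same days in the 2 D1 and 2 D5 libraries labelled CTL, the control medium, served as the reference. The other lists came from 2 wild-type libraries at day 0 and from 10 libraries of 2 lines labelled Setd2 KO, 1 library for each line, day and medium. The labels do not give the methionine concentration, the composition of either medium, or whether replicates came from separate cultures, so p-values measure only the spread between these libraries.

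H3K36me3 is laid down by Setd2, a methyltransferase that travels with elongating RNA polymerase II, and it accumulates over the bodies of transcribed genes, most densely toward their 3′ ends. The methyl group comes from S-adenosylmethionine, which cells make from methionine. When myoblasts differentiate they leave the cell cycle, shut down the genes of DNA replication and mitosis, and switch on the genes of the sarcomere, the contractile unit of muscle, and of the calcium release that drives it.

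The level of a gene was its cover, the percent of its body lying inside merged peaks. Differences in cover are given in percentage points. Cover was measured for 19190 protein-coding genes with a body of at least 2 kb, and the 9514 whose cover averaged 5% or more across the 10 wild-type libraries were tested with limma, a linear model fitted across all genes. A gene covered in a single group could pass this 5% filter, and its direction in comparisons with that group then followed from the filter. A gene was called higher or lower where the Benjamini-Hochberg adjusted p was under 0.05. Control values of single genes are means of 2 libraries, with a median SD of 2.92 points and a highest SD of 26.6 points over the genes named.

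Between day 1 and day 5 the restricted lists came to hold fewer peaks that covered more of the genome. Covered length was 128 and 110 Mb (replicates 1 and 2) at day 1 and 131 and 134 Mb at day 5, a mean gain of 13.6 Mb. Peaks numbered 74942 and 71835 at day 1 and 63608 and 63422 at day 5, while their median width went from 799 and 767 bases to 842 and 839. Genes with at least 50% cover, called marked here, numbered 3053 and 2417 at day 1 and 3273 and 3379 at day 5. In these 4 measures the days did not overlap, but 2 libraries against 2 cannot give an exact two-sided permutation p below 0.333. With only peaks at −log10 q of at least 3, the mean number of peaks was instead 2604 higher at day 5. Peak lists carry no read depth or spike-in scale, so fewer marked cells and less mark per cell cannot be told apart. Day 1 replicate 2 had the shortest list of the wild-type libraries. In control medium the covered length went from a mean of 145 ± 7.07 Mb to 177 ± 8.88 Mb (SD, n = 2 each) and the number of peaks was higher, not lower, at day 5, with means of 77813 and 87332.

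**Figure D1:**
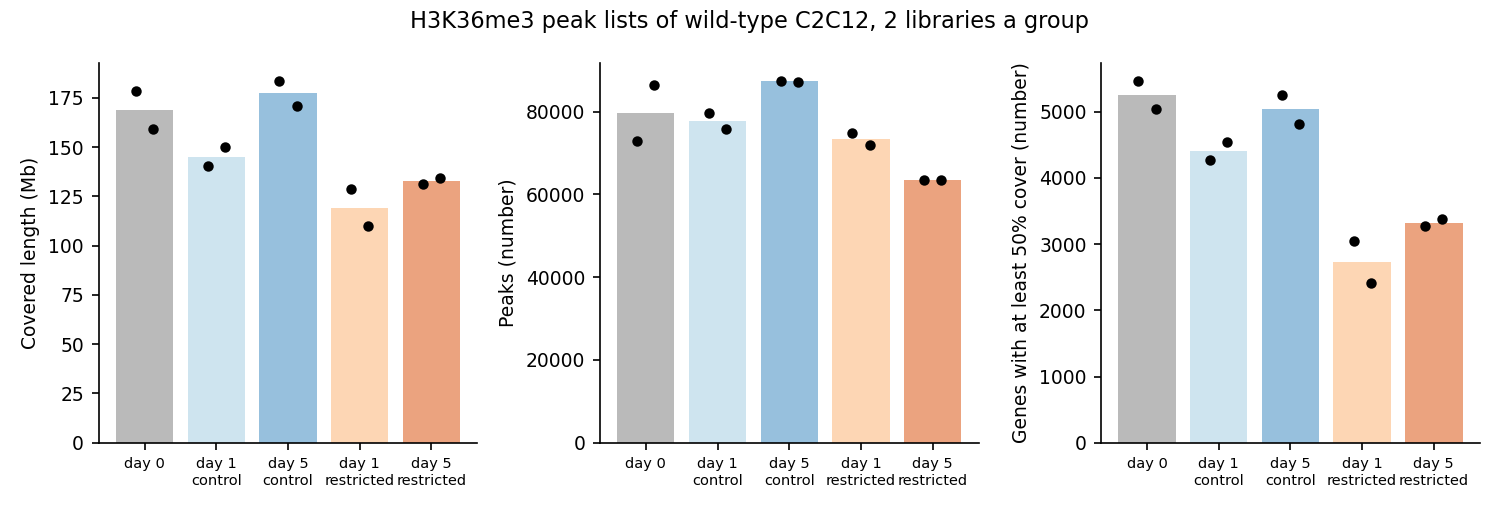
Covered length in Mb, number of peaks and number of marked genes in the 10 wild-type libraries, with points for libraries and bars for the means of 2. From day 1 to day 5 the restricted libraries had more covered length and marked genes and fewer peaks, and their day 5 covered length of 131 and 134 Mb stayed below every control library at day 5.

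Bases inside peaks in both day 5 libraries and in neither day 1 library summed to 12.1 Mb, of which 94.5% lay in gene bodies. Bases lost in the same sense summed to 6.87 Mb, and 73.4 Mb lay in peaks of all 4 libraries, with 97.5% in gene bodies. Bases in only 1 library of a pair summed to more, 59.2 Mb at day 1 and 47.4 Mb at day 5. The gained bases were scattered, with 1236 stretches of at least 1 kb and 11 of at least 10 kb. The overlap of the lists, as shared bases over all covered bases, was 0.602 between the day 1 replicates, 0.697 between the day 5 replicates and 0.573 to 0.607 across days. The day 1 replicates were thus no more alike in extent than some pairs across days.

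Between restricted day 1 and day 5, 1184 of 9514 genes (12.4%) were called, 831 higher (8.73%) and 353 lower (3.71%). The falls were the deeper changes: 102 genes fell by at least 50 points and 20 rose by as much. The median gene called lower went from 51.6% cover at day 1 to 7.57% at day 5, close to nothing. The median gene called higher went from 24.0% to 51.0%, the level such genes already had at day 0 (median 51.9%) and at day 1 in control medium (50.1%). Libraries of the days did not overlap, with day 5 higher, in 47.8% of tested genes and, with day 5 lower, in 12.3%, so a lack of overlap was common. The split between rises and falls depended on how the libraries were scaled, and the median of all genes moved by 4.22 points. With each library centred on its median gene, 432 were higher (4.54%) and 565 lower (5.94%), and with every list shortened to 110 Mb, 261 were higher (3.13%) and 409 lower (4.91%) of 8329 tested. Calls in the same direction under all 3 scalings numbered 169 higher and 256 lower. Without day 1 replicate 2 the calls were 292 higher and 284 lower, without day 5 replicate 1 they were 306 and 209, and without day 5 replicate 2 they were 225 and 200.

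Nebulin led the genes that rose. Neb, which encodes the giant ruler protein of the thin filament and spans chr2:52136640-52338798 (GRCm38), had 0.831% and 0.256% cover in the day 1 libraries and 81.2% and 84.5% in the day 5 libraries. The day 5 libraries were far above both day 1 libraries, a rise of 82.3 ± 3.33 points (SE, limma adjusted p = 1.50e-05). Myom2, an M-band crosslinker, went from 2.84% and 0.475% to 68.2% and 71.0%. Both genes were empty or nearly so at day 1 and marked over most of their length at day 5. Myh3, the embryonic myosin heavy chain, was at 0 in both day 1 libraries and at 56.7% and 57.8% at day 5, a rise of 57.3 ± 4.01 points (limma adjusted p = 6.85e-05). All of them reached a higher level at day 5 in control medium, with means of 95.4% for Neb, 84.7% for Myom2 and 93.1% for Myh3.

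Calcium release genes changed with them. Ryr1, the release channel of the sarcoplasmic reticulum at chr7:29003340-29125179, had 2.64% and 4.58% cover at restricted day 1 and 76.7% and 75.6% at day 5, a rise of 72.5 ± 3.52 points (limma adjusted p = 1.70e-05). In control medium Ryr1 already had a mean of 63.8% at day 1 and 96.4% at day 5, so its rise was 40.0 points larger under restriction (limma adjusted p of the difference = 0.00327). With lists of equal length that difference was 23.6 points and not called (limma adjusted p = 0.0547). Cacna1s, the voltage sensor that opens Ryr1, stood at 0 in both day 1 libraries and at 57.8% and 56.3% at day 5. Its rise of 57.1 points was 34.2 points smaller than in control medium (limma adjusted p of the difference = 0.00347).

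Not all of the largest rises were in muscle genes. Chrd, which encodes the BMP antagonist chordin, went from 0 and 0 to 61.3% and 65.0%, Gem, a small GTPase that inhibits calcium channels, from 12.8% and 3.95% to 69.3% and 67.1%, and Tnfrsf25, a death-domain receptor, from 24.0% and 17.5% to 75.6% and 96.8%. Hoxa2, a homeobox gene with a body of 2.42 kb, had 31.3% and 0 at day 1 and 80.7% in both day 5 libraries. Ogn, a small leucine-rich proteoglycan gene whose whole body overlaps another annotated gene, and Fes, a tyrosine kinase, were also among the 12 largest rises. Fes went from 18.2% and 3.64% to 74.6% and 77.1%, but its limma adjusted p was 0.0489. Under 23 alternative settings it was called in 9. Tnfrsf25, Hoxa2, Chrd and Cntf, the last a ciliary neurotrophic factor gene named below, were not called with lists of equal length. Over the 12 genes the restricted day 5 cover was 56.3 to 96.8%, and 8 of them also rose in control medium.

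The deepest falls were in genes of chromosome segregation. Espl1 encodes separase, the protease that cuts the cohesin ring at anaphase, and lies at chr15:102296254-102324357. It had 91.5% and 88.4% cover at restricted day 1 and 1.53% and 1.38% at day 5, a fall of 88.5 ± 4.37 points (limma adjusted p = 1.88e-05). Cenpe, a kinetochore motor, went from 94.1% and 91.7% to 6.49% and 4.82%. Ndc80, the core of the kinetochore's grip on microtubules, went from 92.0% and 87.6% to 2.24% and 3.26%. These genes passed from nearly full cover to nearly none. A lack of overlap between days was a condition for the 12 largest changes in each direction, so it is no separate result. Iqgap3, Hmmr, Bub1b, Bub1, Kif20b, Dlgap5, Cenpf, Kif2c and Nek2 completed the list of 12. Bub1 and Bub1b encode spindle checkpoint kinases, Kif20b and Kif2c mitotic kinesins, and Nek2 a centrosomal kinase. Across all 12, restricted day 1 libraries had 79.0 to 94.1% cover and restricted day 5 libraries 0 to 6.49%. In control medium the same 12 genes also fell, to day 5 means between 10.3% and 32.4%, and the fall differed between media for 1 of them, Hmmr (26.6 points deeper under restriction, limma adjusted p = 0.0338). The Hmmr difference was -6.32 points and not called with lists of equal length.

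**Figure D2:**
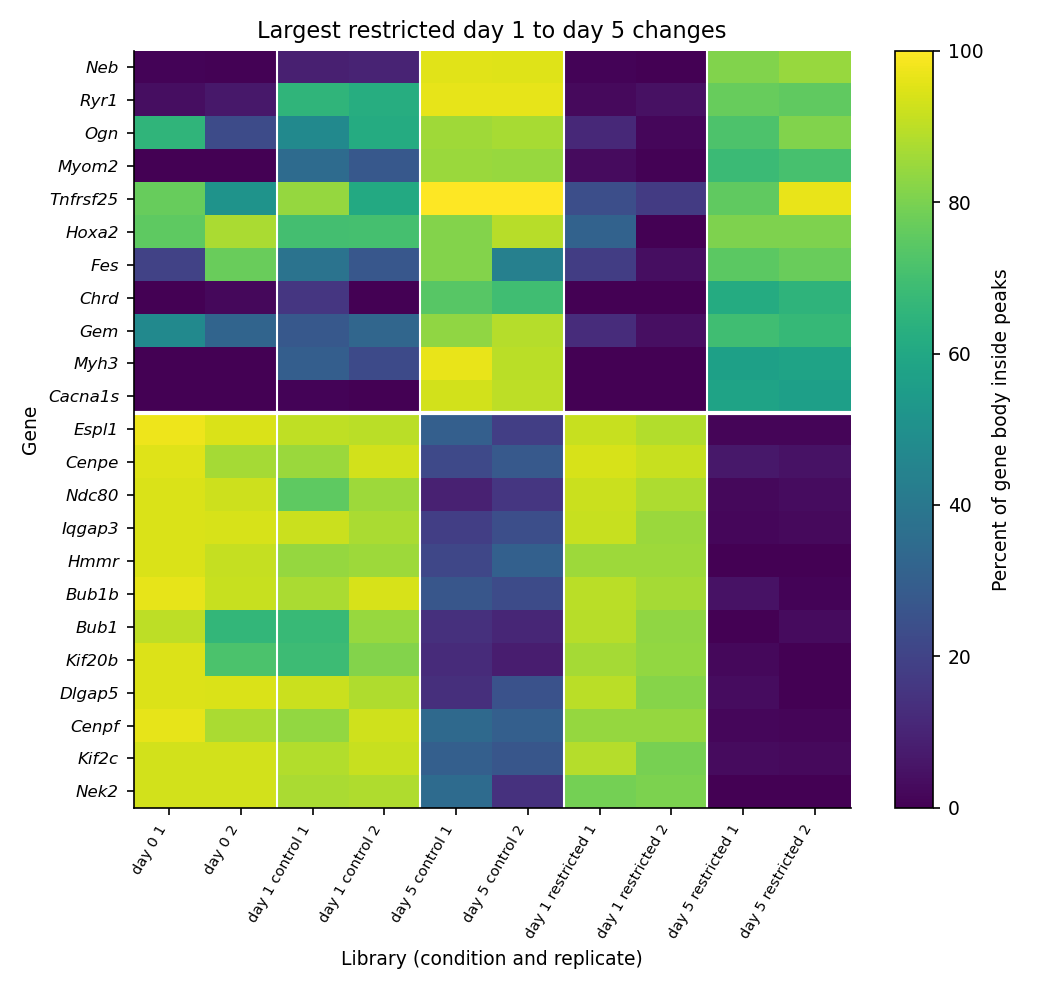
Cover, as percent of the gene body inside peaks, in the 10 wild-type libraries for 11 of the 12 largest rises (upper block) and the 12 largest falls (lower block) among genes called between restricted day 1 and day 5. The lower block is near 0 in both restricted day 5 libraries and between 10.3% and 32.4% on average at day 5 in control medium.

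Cover of these 24 genes was also measured in the lines labelled KO, whose peak names call them replicates rather than lines. At restricted day 1 all 24 were at 0 in both lines, whose lists held only 0.307 and 0.00815 Mb and 0 marked genes. Of the 831 genes called higher, 813 and 829 were at 0 there, so these zeros were not particular to the 24. At day 5, KO line 2 had all 24 at 0, but also 806 of the 831 called higher and 344 of the 353 called lower. KO line 1 at day 5 had 2 of the 12 rising genes marked, with cover of up to 90.0%, and none of the 12 falling genes above 1.01%. That library was not free of the mark: it held 45.8 Mb of peaks and 640 marked genes, among them 66 of the 831 genes called higher and 5 of the 353 called lower.

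Of 44 sarcomere and contractile genes, 38 were tested, and 17 rose between restricted day 1 and day 5, none fell and 21 were not called, against 8.73% of all genes higher. At an unadjusted limma p under 0.05, 23 were higher and 0 lower. The median difference over the 38 was 12.7 points beside 4.22 for all genes. With centring 12 were higher and with equal list lengths 10 of 34, and leaving out single libraries gave 11 to 20. In control medium 31 of the 38 rose, with a median of 44.2 points, beside 17.1% of all genes. For 20 of the 38 the change was smaller under restriction than in control medium by the test of the difference, beside 3.58% of all genes, and for none was it larger (2 at an unadjusted limma p under 0.05). With equal list lengths it was smaller for 20 of 34. Members covered almost only at control day 5, such as Csrp3 below, passed the 5% filter on cover through that group. For such members a rise in control medium and a smaller restricted change followed from the filter, so both counts partly reflect it. Myh1, an adult fast myosin heavy chain, was at 0 in both day 1 libraries and at 55.0% and 45.1% at day 5, against a mean of 84.7% at day 5 in control medium. Myom3, another M-band gene, went from 0 and 0 to 48.8% and 47.8%. Tnnt3, fast troponin T, chosen after its values were seen, went from 0 and 0 to 28.4% and 40.8%, a call lost with equal list lengths, and its control mean at day 5 was 90.9%. In all 3 the restricted day 5 values lay below the control day 5 mean.

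Several sarcomere genes showed no peak at all under restriction. Myh7, Mylpf, Tnni2, Tnnc2 and Mybpc2, named here after their values were seen, were at 0 in all 4 restricted libraries, with control day 5 means of 60.1%, 43.5%, 59.3%, 67.3% and 35.5%. Of the Myh7 body 96.2% overlaps another annotated gene. They encode slow myosin, a fast regulatory light chain, fast troponin I, fast troponin C and a myosin-binding protein. Csrp3, a Z-disc protein, had 0 in both day 1 libraries and 0 and 2.08% at day 5, against a control day 5 mean of 73.1%. Acta1, skeletal actin, had 19.8% and 0 at day 1 and 0 and 17.3% at day 5, so its restricted groups overlapped. The 17 called genes had longer bodies, with a median of 28.8 kb, than the 21 that were not called, with a median of 14.7 kb. Among members that reached 50% on average at day 5 in control medium, the 17 with bodies under 20 kb had a median of 17.4% at restricted day 5, and the 15 longer ones 44.4%. Their control day 5 medians were 80.7% and 84.7%. The part of body length in these values was not tested.

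Of 18 genes of calcium handling and excitation, 14 were tested and 8 rose, with none lower and a median difference of 15.1 points, against 8.73% of all genes higher. With lists of equal length 3 of the 14 were higher, against 3.13% of all genes. In control medium 10 rose, against 17.1% of all genes. The difference between media was called as larger under restriction for 2 and as smaller for 7, against 1.62% and 3.58% of all genes. Ryr1 and Cacnb1, a beta subunit of the same calcium channel, were the 2 with the larger change, and with lists of equal length neither difference was called while 7 were called smaller. Cacnb1 went from 34.2% and 39.0% to 72.2% and 73.9%, and it stood at 87.6% and 90.4% on average at days 1 and 5 in control medium. The restricted change of Cacnb1 was not called with lists of equal length (limma adjusted p = 0.424). Casq1, the fast calsequestrin that stores calcium, had no peak in any restricted library and a control day 5 mean of 67.2%. It was named after its values were seen.

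Among 28 genes of fusion, adhesion and the neuromuscular synapse, 26 were tested and 9 rose, against 8.73% of all genes. Musk, the receptor kinase of the synapse, went from 6.58% and 2.70% to 44.5% and 43.2%. Lrp4, its agrin-binding partner, went from 42.0% and 33.0% to 75.8% and 76.5%. The day 5 libraries of both lay above both day 1 libraries. With centring 5 were higher and 2 lower, and with lists of equal length 4 of 23 were higher.

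None of the 8 tested myogenic transcription factors, of 15 listed, was called under restriction, against 12.4% of all genes. None had an unadjusted limma p under 0.05, against 2635 of 9514 tested genes. In control medium 2 rose and 1 fell, against 17.1% and 5.95% of all genes. Myog, the factor that commits myoblasts to fuse, had no peak in any restricted library, against control means of 71.9% at day 1 and 92.6% at day 5. Myod1, the lineage factor, was also at 0 in all 4 restricted libraries, with 59.0% and 72.6% in control medium. Both bodies are short, at 2.54 and 2.62 kb. Six4, a homeobox factor of the muscle lineage, had 46.4% and 29.9% at day 1 and 42.6% and 54.2% at day 5, and its days overlapped.

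**Figure D3:**
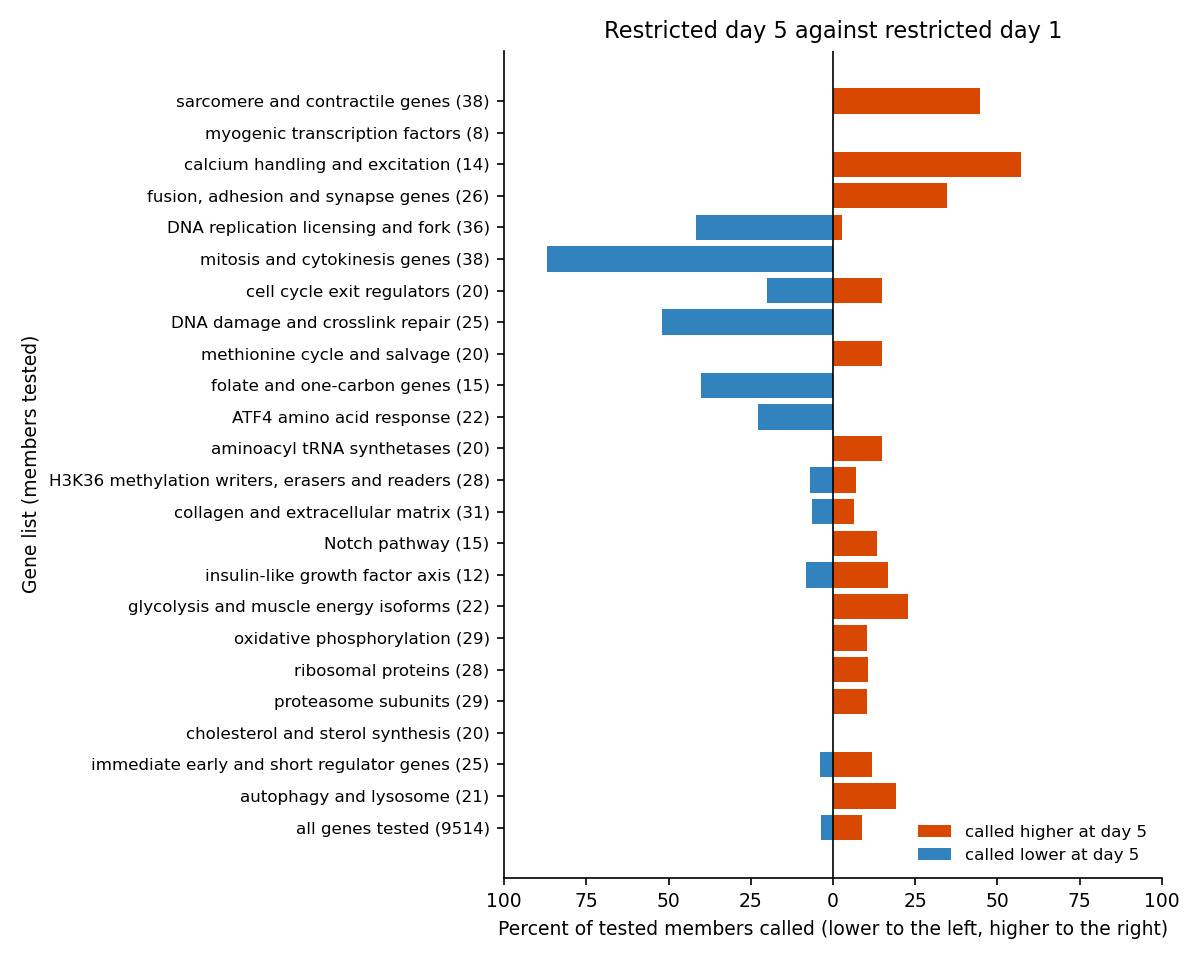
Percent of the tested members of each gene list called higher (right) or lower (left) at restricted day 5 against restricted day 1, with the number tested in brackets and all genes in the last row. Mitosis genes have 33 of 38 members lower, and calcium handling and sarcomere genes have 8 of 14 and 17 of 38 members higher.

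All 38 listed genes of mitosis and cytokinesis were tested, and 33 fell between restricted day 1 and day 5, none rose and 5 were not called, against 3.71% of all genes lower. At an unadjusted limma p under 0.05, 35 were lower and 0 higher. Their median difference was -64.8 points under restriction and -43.3 points in control medium, where 28 fell, against 5.95% of all genes. Without single libraries 28 to 34 were lower, with centring 35 and with equal list lengths 31. The median member went from 75.3% cover to 4.80% under restriction. The difference between media was called for 5 members, against 3.58% of all genes more negative, all with the deeper fall under restriction: Anln, Top2a, Aurka, Mki67 and Cdk1. Top2a, the topoisomerase that untangles sister chromatids, went from 90.3% and 92.0% to 12.9% and 22.7%, while in control medium it had means of 96.0% and 69.7%. Mki67, the proliferation marker, went from 72.3% and 69.3% to 3.52% and 6.65%, against control means of 81.4% and 45.1%. Cdk1, the kinase that drives entry into mitosis, went from 71.9% and 66.4% to 10.7% and 25.2%, against 90.5% and 74.5%. All 5 had a control day 5 mean above both restricted day 5 libraries. None of these 5 differences was called with lists of equal length: they were -15.6 points at Anln, -6.25 at Mki67, 1.96 at Aurka, 4.42 at Top2a and 9.70 at Cdk1, so the last 3 turned.

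Fewer of the DNA replication genes fell. Of 38 listed, 36 were tested, 15 fell and 1 rose under restriction, against 3.71% and 8.73% of all genes, with a median of -15.9 points. In control medium 19 fell, against 5.95% of all genes, with a median of -22.2 points. Mcm10, an origin firing factor, went from 79.7% and 79.1% to 14.4% and 4.35%. Cdc6, which loads the helicase, went from 68.3% and 53.2% to 6.44% and 4.22%, and Pole, the leading strand polymerase, from 91.2% and 86.8% to 28.7% and 27.9%. The difference between media was not called for these 3, at -5.82, 8.80 and -1.41 points. The difference between media was called for 4 members, all of them with a lesser fall or a rise under restriction: Mcm3, Mcm4, Mcm6 and Pcna. Of all genes 1.62% were more positive and 3.58% more negative. This single direction depended on the processing: with lists of equal length 5 of 35 members were more positive and 4 more negative, and with centring 7 and 1 of 36. Mcm3, a subunit of the replicative helicase, had 89.4% and 89.2% at restricted day 1 and 75.7% and 68.1% at day 5, a fall of 17.4 ± 3.29 points (limma adjusted p = 0.0121). In control medium its mean went from 84.8% to 19.8%, a fall 47.6 points deeper (limma adjusted p of the difference = 0.000841). Mcm4 had 77.8% and 80.4% at day 1 and 74.4% and 80.7% at day 5, and Mcm6 83.8% and 81.2% then 80.6% and 81.2%, while their control means went from 84.3% to 37.1% and from 85.4% to 51.9%. The helicase subunit Mcm5 fell in restricted cells, from 89.3% and 87.9% to 44.3% and 48.6%. Pcna, the sliding clamp, was at 0 in both restricted day 1 libraries and at 19.7% and 20.2% at day 5, but this call was lost with centring, at −log10 q of at least 2 or 3 and without any 1 of the 4 restricted libraries. With lists of equal length the Pcna difference was 0. The differences between media of Mcm4 and Pcna were not called with lists of equal length either. Restricted day 5 libraries thus kept cover on part of the helicase while separase and the kinetochore genes were nearly empty.

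**Figure D4:**
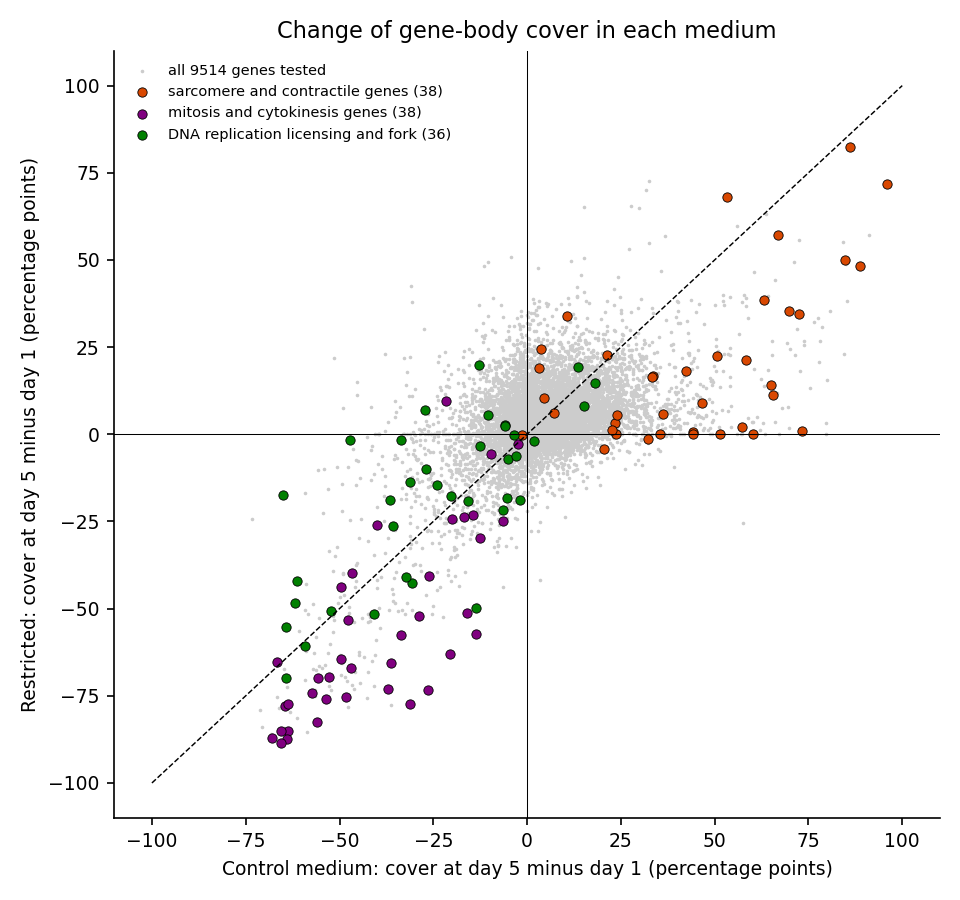
Change in cover from day 1 to day 5 in control medium (x axis) and under restriction (y axis), in percentage points, for 9514 genes, with 3 gene lists coloured and the dashed line marking equal change. Mitosis genes lie mostly below the line with falls in both media, and sarcomere genes lie mostly below it with rises, with medians of 12.7 points under restriction and 44.2 in control medium.

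DNA damage and crosslink repair genes had the same direction, with 13 of 25 tested lower, against 3.71% of all genes, none higher and a median of -25.3 points. In control medium 12 were lower, against 5.95% of all genes. Exo1, a repair exonuclease, went from 73.0% and 71.6% to 3.18% and 8.63%. Brca1, central to homologous recombination, went from 75.8% and 66.0% to 3.46% and 7.34%. Palb2, its partner, went from 57.6% and 61.1% to 5.77% and 9.70%. Among 20 tested cell cycle exit regulators, 3 rose and 4 fell, against 8.73% and 3.71% of all genes. Leaving out single libraries gave 1 to 5 in each direction. The rises included Rb1, the retinoblastoma gene, from 8.37% and 6.35% to 38.4% and 40.2%, and Rbl2, a relative of it, from 51.6% and 38.0% to 65.7% and 72.7%. Rbl2 was called in 11 of 23 alternative settings, and not without day 1 restricted replicate 2 or either day 5 restricted library. The falls included E2f1, an activator of S phase genes, from 38.4% and 42.5% to 19.5% and 11.1%, and Rbl1, another relative, from 74.0% and 65.8% to 19.5% and 12.5%. Neither Rbl2 nor E2f1 was called with lists of equal length (limma adjusted p = 0.209 and 0.467). The difference between media was called for none of these 20 by limma, against 1.62% more positive and 3.58% more negative of all genes. At an unadjusted limma p under 0.05, 3 were positive and 0 negative, against 1936 of 9514 tested genes in either direction.

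The media were compared through the difference of their changes, which was called for 495 genes (5.2%), 154 more positive under restriction (1.62%) and 341 more negative (3.58%). That split turned with the processing: 342 were more positive and 245 more negative with lists of equal length, 314 and 218 at −log10 q of at least 3, and 238 and 217 without day 1 restricted replicate 1. With centring it was 242 and 352, and at a mean cover of at least 20% it was 86 and 102. Of the 341, 317 rose in control medium, and of the 154, 90 fell there. Control medium had 1627 genes higher (17.1%) and 566 lower (5.95%) at day 5. The calls shared by direction were 358 higher, 43.1% of those under restriction and 22.0% of those in control medium, and 238 lower, 67.4% and 42.0%. Genes called in opposite directions were few, with 10 higher under restriction and lower in control medium and 2 the reverse. The control and restricted changes rest on separate libraries.

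The genes with the largest differences between media included 5 that rose in control medium and had low cover at restricted day 5. Zfp750, a zinc finger gene whose whole body overlaps another annotated gene, had 38.0% and 28.2% at restricted day 1 and 6.45% and 8.89% at day 5, while its control mean went from 28.2% to 85.8%. With only peaks at −log10 q of at least 2, the restricted difference of Zfp750 was instead 4.92 points, and with lists of equal length its difference between media was -6.18 points (limma adjusted p = 0.765). Eno2, an enolase of glycolysis, had no peak in the 4 restricted libraries and control means of 4.77% and 84.5%. Slc2a6, a hexose transporter, had 0 and 0 at restricted day 1 and 6.55% and 0 at day 5, with control means of 2.87% and 82.4%. Fgfrl1, a receptor of the fibroblast growth factor family, had 15.9% and 15.3% then 21.2% and 13.3% under restriction, and 14.4% and 84.1% on average in control medium. Csrp3, described above, was the fifth. Eno2, Slc2a6 and Csrp3 were covered almost only at control day 5 and passed the 5% filter through that group. Their rise in control medium and their negative difference thus followed from the filter. In the other direction, Rnf225 had 0 in both restricted day 1 libraries and 23.8% and 19.8% at day 5, while its control mean went from 71.3% to 19.7%. Ccdc74a went from 9.45% and 15.8% to 34.9% and 75.5% under restriction and from 76.6% to 45.6% in control medium. Cntf, whose body also overlaps another gene throughout, went from 43.1% and 29.2% to 84.8% and 84.0%, with control means of 90.5% and 79.0%. The differences of Fgfrl1 and Ccdc74a were not called with lists of equal length (limma adjusted p = 0.0684 and 0.208). For Rnf225, Ccdc74a and Cntf the control mean at day 1 lay above both restricted day 1 libraries.

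Genes of methionine and one-carbon metabolism moved in small numbers. Of 27 listed genes of the methionine cycle and salvage, 20 were tested and 3 rose, with none lower, against 8.73% of all genes higher. Mri1, an isomerase of methionine salvage, went from 30.7% and 14.2% to 70.3% and 66.1%. Mtr, methionine synthase, which remakes methionine from homocysteine, went from 74.2% and 64.8% to 87.2% and 88.4%. With equal list lengths none of the 3 was called, and leaving out single libraries gave 1 to 5. Mtrr, the reductase that reactivates Mtr, had 66.4% and 58.1% then 78.2% and 72.5%, and was not called. In control medium the mean of Mtrr went from 54.5% to 24.5%, and the change differed between media by 43.1 points (limma adjusted p = 0.0190), or by 21.6 points with lists of equal length, not called (limma adjusted p = 0.484).

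Of 15 tested folate and one-carbon genes, 6 fell, against 3.71% of all genes, and none rose. At an unadjusted limma p under 0.05, 7 were lower and 0 higher, against 2635 of 9514 tested genes in either direction. The count was 6 lower with centring and 6 of 14 with lists of equal length. In control medium 3 fell, against 5.95% of all genes. Aldh1l2, a mitochondrial formyl-folate dehydrogenase, went from 53.4% and 48.8% to 8.03% and 6.68%, while its control means were 61.2% and 54.8%, and the change differed between media by -37.3 points (limma adjusted p = 0.00642). Of its body 56.5% overlaps another gene, and with lists of equal length the difference was -18.9 points and not called. Shmt1, cytosolic serine hydroxymethyltransferase, went from 50.3% and 42.0% to 15.8% and 11.6%. Its control means were 17.9% and 15.1%, so its restricted day 1 level lay above both. The restricted falls of Aldh1l2 and Shmt1 were not called at −log10 q of at least 3.

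The list of genes responding to ATF4, the transcription factor of amino acid shortage, had 22 tested members, of which 5 were lower and none higher at restricted day 5, against 3.71% of all genes lower. Phgdh, the first enzyme of serine synthesis, went from 71.5% in both libraries to 40.8% and 37.6%. Atf3, itself a stress factor, went from 47.8% and 46.3% to 26.1% and 16.99%, and Slc1a4, a neutral amino acid transporter, from 31.7% and 34.5% to 13.2% and 11.1%. Leaving out single libraries gave 1 to 6 lower. The difference between media was called for none of the 22 by limma, against 1.62% more positive and 3.58% more negative of all genes. At an unadjusted limma p under 0.05, 1 was positive and 3 negative, against 1936 of 9514 tested genes in either direction. Aminoacyl tRNA synthetases had 3 of 20 higher, against 8.73% of all genes, of which Qars had the largest rise named, from 58.9% and 50.7% to 72.9% and 76.5%, and leaving out single libraries gave 0 to 4.

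Genes that write, erase or read H3K36 methylation gave 2 higher and 2 lower of 28 tested, counts near the shares of all genes (8.73% and 3.71%). Setd2 itself had 52.8% and 45.6% at day 1 and 55.7% and 60.7% at day 5, and was not called (limma adjusted p = 0.305). Phf1, a reader of the mark in a Polycomb complex, rose from 30.7% and 19.3% to 54.2% and 63.2%, and Kdm4b, a demethylase, from 22.2% and 18.3% to 44.1% and 45.6%. Phf19, another reader, fell from 21.0% and 20.2% to 0 in both libraries. Kdm8 fell from 32.8% and 22.8% to 10.2% and 11.7%, and was called in 8 of 21 alternative settings. Phf1, Kdm4b and Kdm8 were not called with lists of equal length (limma adjusted p = 0.276, 0.102 and 0.0623).

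Bodies were split into first, middle and last segments of equal length in transcript direction. In percentage points most of the change lay in the middle and last, where most of the cover also lay. Over all 7711 tested genes with a known strand, the segments had 13.6%, 38.8% and 51.7% at restricted day 1. Over the 667 genes called higher with a known strand, mean cover of the 3 segments was 11.7%, 33.1% and 40.1% at restricted day 1 and 22.0%, 58.2% and 70.5% at day 5. Over 278 genes called lower it was 28.7%, 60.7% and 67.6% and then 6.11%, 15.4% and 20.3%. The genes were chosen by the same change, so these means describe where along the body it lay in points. Change relative to the starting cover of each segment was not tested. In the sarcomere list (30 genes with a strand) the first segment reached 7.67% and the last 35.4% at restricted day 5, against 47.1% and 87.4% at control day 5. In control medium at day 1 the same segments had 16.7% and 38.6%.

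**Figure D5:**
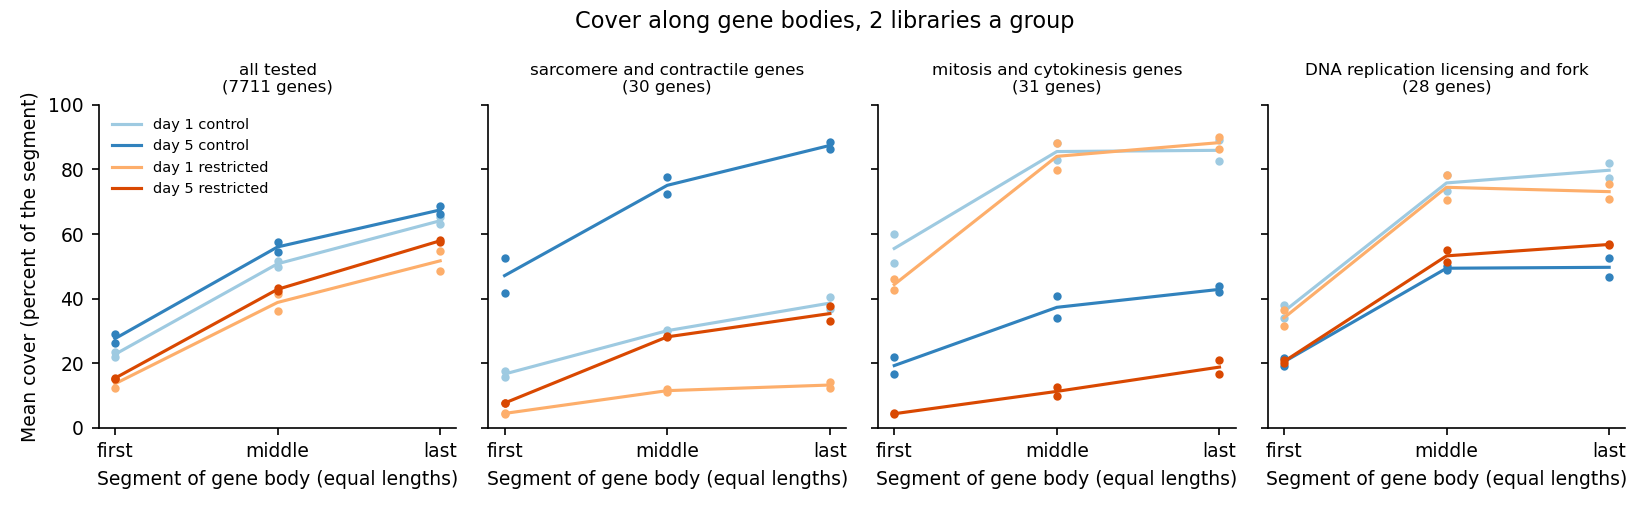
Mean cover of the first, middle and last segments of gene bodies in transcript direction, with lines for group means and points for the 2 libraries of each group. Sarcomere genes at restricted day 5 reach 35.4% in the last segment, below the 87.4% of control day 5, and mitosis genes at restricted day 5 lie below every other group.

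Promoters were examined because the sarcomere and replication lists moved in opposite directions. RefSeq sequences (GRCm38.p6) of the 250 bases before an annotated transcript start, the one nearest the 5′ end of the body, were matched for 7711 of the 9514 tested genes. That start lay over 250 bases inside the body for 18.6% of them, so such windows are within the body. They were searched on both strands for the E-box CAGCTG, a core bound by myogenic factors, for the E-box CAGGTG, for the E2F-like TTCCCGC and TTGGCGC, and for TGATGCA, part of the element bound by ATF4. CAGCTG was in 10 of 30 sarcomere promoters (33.3%), against 11.3% of tested genes, and CAGGTG in 26.7% against 14.1%. Over all genes called higher CAGCTG was in 13.8%, near the share of tested genes. TTCCCGC was in 12.6% of promoters of genes called lower, 3.90% of those called higher and 7.35% of all tested, and TTGGCGC in 7.55%, 1.80% and 3.85%. In the replication list TTCCCGC was in 6 of 28 promoters (21.4%) and TTGGCGC in 2 (7.14%). In the mitosis list, most of which fell, TTCCCGC was in 1 of 31 (3.23%), below the share of all tested genes, and TTGGCGC in 4 (12.9%). TGATGCA was in 1.44%, 1.65% and 1.48%. Promoters of 3 sarcomere genes and 3 replication genes with large changes follow, to show the matches beside promoters without one. Capitals mark matches to any of these motifs. The start used lies 27, 442 and 915 bases inside the body for Myh3, Cdc6 and Myom3, so the windows of Cdc6 and Myom3 are within the body, and at its 5′ end for the other 3.
Myh3, chr11:67078050-67078299, plus strand: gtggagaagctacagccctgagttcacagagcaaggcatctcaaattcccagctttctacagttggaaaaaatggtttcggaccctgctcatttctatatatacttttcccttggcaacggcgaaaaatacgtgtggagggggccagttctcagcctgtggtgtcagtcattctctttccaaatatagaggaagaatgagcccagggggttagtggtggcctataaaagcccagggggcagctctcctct
Myh1, chr11:67199852-67200101, plus strand: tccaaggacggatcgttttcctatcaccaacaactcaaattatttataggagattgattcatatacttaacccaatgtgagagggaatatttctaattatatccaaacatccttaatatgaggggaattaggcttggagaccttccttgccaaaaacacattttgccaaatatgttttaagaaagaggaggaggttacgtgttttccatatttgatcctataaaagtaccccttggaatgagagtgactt
Myom3, chr4:135759465-135759714, plus strand: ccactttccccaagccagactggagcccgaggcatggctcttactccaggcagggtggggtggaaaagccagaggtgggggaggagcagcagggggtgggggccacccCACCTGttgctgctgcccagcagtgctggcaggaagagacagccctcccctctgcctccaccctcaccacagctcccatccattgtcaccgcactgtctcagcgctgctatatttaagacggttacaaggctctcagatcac
Mcm10, chr2:5012792-5013041, minus strand: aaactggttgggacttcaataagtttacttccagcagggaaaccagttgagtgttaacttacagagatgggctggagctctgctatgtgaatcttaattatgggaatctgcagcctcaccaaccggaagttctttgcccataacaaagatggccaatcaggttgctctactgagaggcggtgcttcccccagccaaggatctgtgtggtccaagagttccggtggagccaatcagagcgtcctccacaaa
Cdc6, chr11:98907901-98908150, plus strand: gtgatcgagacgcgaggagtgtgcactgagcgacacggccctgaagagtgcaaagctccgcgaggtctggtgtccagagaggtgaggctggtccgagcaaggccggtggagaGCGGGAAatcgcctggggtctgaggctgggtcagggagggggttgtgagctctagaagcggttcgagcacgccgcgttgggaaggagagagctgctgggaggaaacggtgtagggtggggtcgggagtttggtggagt
Prim1, chr10:128014965-128015214, plus strand: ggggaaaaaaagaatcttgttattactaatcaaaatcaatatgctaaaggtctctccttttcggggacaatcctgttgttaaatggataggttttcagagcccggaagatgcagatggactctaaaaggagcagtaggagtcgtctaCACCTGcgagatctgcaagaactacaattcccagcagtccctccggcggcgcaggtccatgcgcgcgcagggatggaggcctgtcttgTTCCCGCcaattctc
The Myom3 promoter holds 1 CAGGTG match on the reverse strand, and those of Myh3 and Myh1 hold none. The Cdc6 promoter holds 1 TTCCCGC match on the reverse strand, and that of Prim1, a primase subunit, holds CAGGTG and TTCCCGC, while that of Mcm10 holds none. A match describes letters in this window and does not show binding, and Neb and Myom2 had no promoter in the RefSeq table used.

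Markers of other cell types were mostly at 0 in the restricted libraries. All 6 epithelial markers were at 0 in the 4 libraries, as were 5 of 6 endothelial, 5 of 6 blood cell, 4 of 6 adipocyte and 5 of 6 cartilage and bone markers. Neuron markers had 3 of 6 at 0, and the summed cover of the list was 47.8 to 56.5 points at day 1 and 23.6 to 36.4 at day 5. The cartilage and bone list summed to 25.8 to 36.1 points at day 1 and 40.5 to 41.5 at day 5, all of it from Sox9, which was not called. The part of these markers in the results above was not tested. Of 8 myoblast markers, Cdh15 and Itga7 were marked in all 4 libraries, and Myod1 and Myf5 were at 0.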

How the data were processed

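The measured data were H3K36me3 broad peak lists of 20 libraries, 1 list per library and none pooled, sequenced as 75-base single-end reads with a Drosophila chromatin spike-in per the labels' protocols. Peak scores, fold enrichment (a ratio over background) and −log10 p and −log10 q values are the authors' deposited columns. The genome build is GRCm38 per the submitters' processing notes. The aligner, peak caller, control and filters are not given in the sources used here, and neither is any use of the spike-in. Read depth is unknown. The 1 input sample was not analysed here.

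Peaks on autosomes and X were merged per library, and cover was computed over RefSeq GRCm38.p6 gene bodies (1-based coordinates), which may overlap. limma 3.58.1 (R 4.3.3, eBayes with trend and robust variance) was fitted to the 10 wild-type libraries in 5 groups, with Benjamini-Hochberg adjustment over 9514 genes. The interval arithmetic was checked on 200 simulated sets, of which 0 differed. The model was tested on simulated data: of 200 genes changed by 30 points between restricted days it called 71.5%, with 4.03% false among calls, and 31.5% for the difference between media. The simulated libraries held no library-wide shift in cover. The real day 1 restricted lists covered 128 and 110 Mb, and false calls from such a shift are not in the 4.03%.

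The named genes are the 12 largest called changes in each direction among genes whose days did not overlap. They also include the 5 largest called differences between media in each direction and a few reference genes. From each of 30 lists, up to 3 called genes per direction are named, or the 2 with most cover where none was called. A few genes that this rule names are not reported here, though counts include them. Others are said to have been named after their values were seen or illustrate a count in the text. The comparison, the lists and the tests were chosen with earlier results of these data known. Same-numbered replicates did not pair. Alternatives covered the peak threshold, merging, list length, centring, scale, filters, body length, overlapping genes, the libraries fitted, the variance model and each library left out.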

Additional observations from a re-analysis of the deposited data

Results flagged for a closer look

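The change from day 1 to day 5 differed between media by limma's test of the difference for 495 genes. The 5 largest positive differences, restricted change minus control change, were 73.5 points at Ccdc74a, 73.4 at Rnf225, 68.7 at Dnd1, 60.4 at 2210016F16Rik and 59.7 at Cntf. The bodies of these 5 genes are short, from 2.10 to 5.18 kb. Dnd1, a germ cell RNA-binding protein gene, had 25.04% and 68.2% cover at restricted day 1, a wide spread between replicates, and 86.8% and 82.4% at day 5, against control means of 100% and 69.3%. 2210016F16Rik had 48.0% and 36.9% then 61.3% and 53.6% under restriction, and control means of 54.0 ± 11.5% and 8.53 ± 12.1% (SD). Its restricted change was not called (limma adjusted p = 0.280). With lists of equal length its difference between media was 46.0 points and not called (limma adjusted p = 0.353).

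The 5 largest negative differences were -83.1 points at Zfp750, -79.7 at Eno2, -76.3 at Slc2a6, -72.1 at Csrp3 and -68.1 at Fgfrl1. Eno2, Slc2a6 and Csrp3 had at most 6.55% cover in any restricted library. They passed the 5% filter on cover through control day 5, so the sign of their difference followed from it. No outlier test was possible because each group has 2 libraries.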

How the results depend on the processing

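Depth is unknown for peak lists, and 2 libraries a group limit every comparison. The number of peaks at day 5 minus day 1 was -9873.5, and 2604 at −log10 q of at least 3, and the gene-body share difference of -0.199 points was 0.0115 with lists of equal length. Bases lost were 6.87 Mb, and 3.57 Mb at −log10 q of at least 3. The 1184 genes called became 670 with equal lists, and 425 to 1393 without single libraries. The 495 differences between media became 307 on the arcsine scale, 188 at a mean cover of at least 20%, and 215 to 647 without single libraries. The counts moved by over 1.5 times without day 1 restricted replicate 2 (576 and 320), without day 5 restricted replicates 1 (515 and 248) and 2 (425 and 215) and, for the media difference alone, without day 1 control replicates 1 (256) and 2 (282). A lone remaining library is assumed to vary like the other groups. Without single libraries, day 5 minus day 1 was 4.27 to 22.9 Mb of covered length, -11427 to -8320 peaks, 273 to 909 marked genes, -0.337 to -0.0620 points of gene-body share and 41.5 to 73.5 bases of peak width.

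Replicate numbers did not pair the libraries, since correlations of replicate differences between groups ran from -0.439 to 0.0614. With the replicate block 997 genes were called, 678 higher and 319 lower, and 399 for the difference between media.

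Single genes changed sign, without a call, as follows, and the cause was not tested. Zfp750 had 4.92 points at −log10 q of at least 2, and a media difference of 0.51 at 3. With centring Slc2a6 had -1.34, Csrp3 -3.57, Fgfrl1 -2.93 and Cdh15 -2.22. Six4 had -0.92 with equal lists, and with peaks within 1 kb merged Mcm4 had 2.14 and Cdh15 -0.81. Without single libraries Fgfrl1 ran from -2.28 to 5.66, Acta1 from -11.1 to 8.66 (7.42 without day 5 restricted replicate 1), Mcm4 from -4.66 to 1.58, Cdh15 from -0.65 to 5.45 and Itga7 from -2.43 to 1.34.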

Other observations

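Housekeeping lists had few called members. Ribosomal protein genes had 3 of 28 higher, near the 8.73% of all genes, and none lower, with a median of 9.92 points beside 4.22 for all genes and -0.486 for the same list in control medium. Rplp0, a stalk protein of the large subunit, went from 41.2% and 25.3% at restricted day 1 to 55.6% and 65.3% at day 5. Rpsa, which has 12 pseudogene copies that could share reads, went from 63.6% and 65.0% to 81.1% and 79.9%. Proteasome subunits had 3 of 29 higher and oxidative phosphorylation genes 3 of 29, also near that share. Without single libraries these counts ran from 1 to 9, 0 to 9 and 0 to 6. Cholesterol synthesis genes had 0 of 20 called by limma, against 8.73% of all genes higher and 3.71% lower. At an unadjusted limma p under 0.05, 2 were higher and 4 lower, against 2635 of 9514 tested genes in either direction.

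Muscle energy genes had 5 of 22 higher and none lower, and autophagy and lysosome genes 4 of 21 higher and none lower, against 8.73% of all genes higher, and with lists of equal length each had 1 higher. Pygm, muscle glycogen phosphorylase, went from 0 and 0 to 34.4% and 32.3%, against a control day 5 mean of 87.4%. Trim63, a ubiquitin ligase of muscle atrophy, went from 0 and 0 to 27.7% and 18.1%, against 84.5%. Map1lc3b, a core autophagy protein, went from 32.3% and 42.6% to 72.2% and 64.7%. With lists of equal length none of Pygm, Trim63 and Map1lc3b was called (limma adjusted p = 0.210, 0.0721 and 0.0639). The Notch pathway had 2 of 15 higher and none lower, against 8.73% and 3.71% of all genes. With lists of equal length 1 of 14 was higher and 1 lower. Its ligand gene Dll1 went from 6.19% and 8.59% to 37.3% and 41.1%, against control means of 68.6% and 56.8%, with a difference between media of 43.6 points (limma adjusted p = 0.00630). Of 12 genes of the insulin-like growth factor axis 2 rose and 1 fell, against the same shares of all genes, and 1 of 11 each way with lists of equal length. Igf2r, a receptor that clears the ligand, rose from 18.5% and 12.4% to 38.9% and 38.6%, and Igfbp5, a binding protein, from 34.2% and 32.0% to 49.0% and 43.1%. Igfbp2, another binding protein, fell from 34.5% and 21.9% to 4.01% and 3.60%, while its control mean went from 78.4% to 5.01%. Of 31 collagen and extracellular matrix genes 2 rose and 2 fell, near the shares of all genes (8.73% and 3.71%). Col1a1, a chain of type I collagen, went from 25.5% and 21.5% to 57.4% and 59.6%, but with lists of equal length its difference was 8.07 points and not called (limma adjusted p = 0.848). Tnc, tenascin C, whose body overlaps another gene over 71.4% of its length, fell from 76.9% and 68.0% to 56.6% and 54.3%, and Mmp14, a membrane matrix protease, from 53.4% and 48.2% to 38.4% and 31.7%. Tnc was called in 11 and Mmp14 in 10 of 23 alternative settings.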
